A study of Homo sapiens with 6 samples.

Results

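The 8 genes described here encode the MHC class I presentation machinery: the heavy chains HLA-B, HLA-C, HLA-E and HLA-F, the light chain B2M, the peptide transporter subunits TAP1 and TAP2, and TAPBP, which encodes tapasin. They were taken by name from the list of class I heavy chain, light chain and peptide loading genes. Earlier results of these data were known when the genes were chosen. All 8 were among the 21619 genes counted, and all 8 were among the 13548 genes that had enough reads to be tested.

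MDA-MB-231 cells, an established human line from a triple-negative breast tumour, carried the ribosomal protein L10a fused to EGFP. Ribosomes were pulled down through the tag (translating ribosome affinity purification, TRAP), and the mRNA bound to them was sequenced. Every culture, controls included, carried the tagged L10a and was held in 0.2% serum for 24 h. Untreated cells were then compared with cells given CXCL12 and IGF1 together for 6 h, at a lower dose (30 ng/mL CXCL12, 10 ng/mL IGF1) or a higher dose (300 ng/mL CXCL12, 100 ng/mL IGF1), with 2 biological replicates (a and b) in each of the 3 groups. The model is 1 cell line without immune cells, both factors were always given together, and total RNA was not analysed here, so the amount of an mRNA, its loading on ribosomes and its recovery cannot be told apart. In a pull-down from whole cultures, fewer cells and less RNA per cell cannot be told apart either.

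MHC class I molecules show fragments of a cell's own proteins to cytotoxic T cells and natural killer cells. Proteasomes and peptidases cut proteins into peptides, TAP1 and TAP2 pump them into the endoplasmic reticulum (ER), and tapasin holds an empty heavy chain with B2M next to the transporter until a peptide is bound. Transcription of these genes rises with interferon, through STAT and IRF factors at an interferon-stimulated response element and through NLRC5 at a conserved promoter module that also binds RFX, CREB and NF-Y.

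Because the heavy chain and light chain genes are known to share this promoter layout, the stretches before their starts are shown for HLA-B, HLA-C and B2M. They run 5′ to 3′ from 250 to 41 bases before the RefSeq gene start, on build GRCh38.p14, and overlap no exon of their own gene in GENCODE v29. HLA-B is at chr6:31357220-31357429 on the minus strand, HLA-C at chr6:31272133-31272342 on the minus strand and B2M at chr15:44711267-44711476 on the plus strand. A pseudogene annotated on the other strand (AL671883.2) overlaps 372 of the 1547 exonic bases of HLA-B. Capitals mark matches, on either strand, to the response element letters GAANNGAAA, to its longer form (GAAA, any 2 bases, GAAA), to the CCAAT box (CCAAT) and to the CREB core site (TGACG). These are reference sequences and not the alleles of MDA-MB-231.
HLA-B: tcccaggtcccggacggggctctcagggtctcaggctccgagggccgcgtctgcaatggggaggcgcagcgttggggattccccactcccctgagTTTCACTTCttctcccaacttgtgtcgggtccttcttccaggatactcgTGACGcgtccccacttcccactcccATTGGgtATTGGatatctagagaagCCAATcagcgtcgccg
HLA-C: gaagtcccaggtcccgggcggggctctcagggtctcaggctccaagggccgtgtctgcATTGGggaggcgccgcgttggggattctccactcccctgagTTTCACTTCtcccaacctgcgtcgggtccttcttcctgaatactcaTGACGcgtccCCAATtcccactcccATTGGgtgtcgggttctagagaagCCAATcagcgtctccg
B2M: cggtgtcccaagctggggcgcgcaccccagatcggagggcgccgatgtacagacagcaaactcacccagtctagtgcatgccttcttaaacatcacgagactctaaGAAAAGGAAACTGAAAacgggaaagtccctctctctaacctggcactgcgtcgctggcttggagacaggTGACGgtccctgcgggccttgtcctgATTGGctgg

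HLA-B and HLA-C had a response element 155 and 151 bases before the start, a CREB core site at 106 and 105, and the CCAAT box nearest the start at 56 in both. HLA-B held 3 CCAAT matches and HLA-C 4, not all at the same places. B2M had its response element match at 144, its CREB core site at 75 and its CCAAT box at 49. Of the 35116 RefSeq windows of 250 bases, 9.08% held at least 1 of the response element forms, 32% a CCAAT box, 21.2% a CREB core site and 0.533% all 3 kinds. HLA-B, HLA-C and B2M held all 3 kinds. HLA-F held a response element match and CCAAT boxes, TAP1 a response element match and a CCAAT box in 1 of its 2 windows, TAP2 a response element match and a CREB core site, and TAPBP response element matches alone. Matches of the response element forms can overlap each other. Some windows overlap exons of their own gene in GENCODE v29. Of the 210 bases from 250 to 41 before the start, all 210 lay in such exons in TAPBP and in the TAP1 window with matches. The number was 115 in HLA-F and 1 in TAP2. HLA-E was not among the windows searched. A match describes letters in a window, and no promoter activity was measured.

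The 6 libraries held 26255079 to 30280322 reads on genes, so that 3 reads, the limit that a count of 0 allows, came to 0.0991 to 0.114 CPM (reads of a gene scaled to the library's total). The line's own markers were present, with VIM, the intermediate filament vimentin, at 2680 to 3748 CPM. All 4 of them (VIM, CD44, KRT18, KRT8) also fell at both doses, their median log2 fold change being -0.22 (lower dose) and -0.33 (higher dose), and their part in the class I results was not tested. ESR1 and PGR, the hormone receptor genes that this line lacks, had at most 4 and 5 reads in a library. Of the epithelial genes listed as absent or low, CDH1 had 2 to 13 reads and EPCAM 319 to 393 (11.3 to 13.6 CPM), so EPCAM was present at a low level. Of 6 leukocyte markers, CD3E, MS4A1 and NKG7 had 0 reads in all 6 libraries and ITGAM had at most 2. PTPRC, the pan-leukocyte CD45 gene, stood at 0.142 to 0.532 CPM. The summed level of the 6 markers was nearly all CD14 and went from 13.5 and 15.5 CPM in untreated cells to 10.2 and 12.1 CPM at the lower dose and 8.16 and 9.02 CPM at the higher dose. The part of CD14-positive cells in the results was not tested, and the defining T, B and natural killer cell markers were at 0.

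Per kilobase of transcript, B2M was by far the most abundant of the 8 genes in untreated cells, at 1158 ± 21.1 CPM per kb (SD, n = 2), rank 43 of the 11958 tested genes with a known length. HLA-C followed at 212.1 ± 0.031 and HLA-B at 208.4 ± 3.74 CPM per kb, a pair whose levels did not differ beyond their spread. HLA-E stood at 192.9 ± 1.26 CPM per kb. Tapasin (TAPBP) came next with 134.8 ± 2.84 CPM per kb, then TAP2 with 85.3 ± 1.38, TAP1 with 35.0 ± 0.412 and HLA-F with 1.87 ± 0.0513 CPM per kb. The steps from HLA-B to HLA-E and on down to HLA-F were each wider than the spread of the replicates. Per kilobase of coding sequence HLA-E moved ahead of the other heavy chains, at 467 CPM per kb against 297 for both HLA-B and HLA-C, since a large part of its transcript is not coding. HLA-F, at rank 9088, rested on 73 to 91 reads in a library.

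The question addressed was whether the chemokine and growth factor pair moved class I mRNAs on ribosomes. At the lower dose 5 of the 8 genes fell (HLA-B, HLA-C, HLA-E, TAP1, TAPBP), 1 rose (B2M) and 2 did not pass (HLA-F, TAP2), where edgeR's quasi-likelihood test with Benjamini-Hochberg adjustment called 15.9% of all tested genes lower and 16.7% higher (32.6% in all). At the higher dose the same 5 genes fell and B2M rose, against 28.2% of all tested genes lower and 28.1% higher (56.3% in all). At the lower dose HLA-B fell by 6.07% and HLA-C, the largest of the falls, fell by 9.02%. At the higher dose TAP1 fell by 9.53% and TAPBP, the largest of the falls, fell by 17.1%. The median log2 fold change of the 8 genes was -0.09 at the lower dose and -0.16 at the higher, where the medians over all tested genes were -0.0021 and -0.00083. Both comparisons use the same untreated libraries, so they are not independent of each other.

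**Figure D1:**
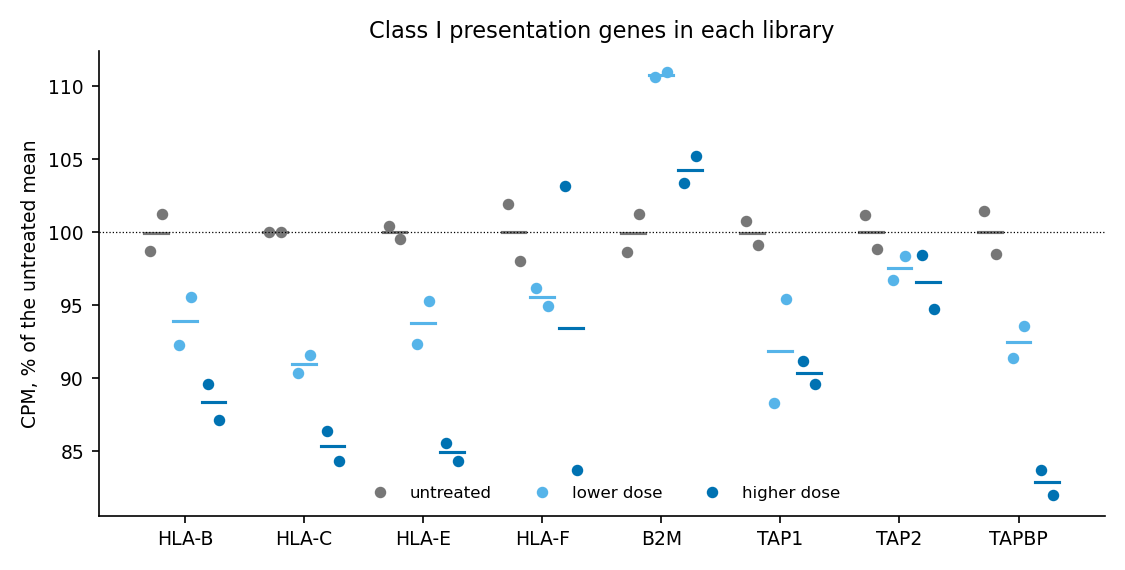
CPM of each of the 8 genes in each of the 6 libraries as a percent of the gene's mean in untreated cells, with 1 point for each library and a bar for each group's mean. HLA-B, HLA-C, HLA-E and TAPBP step down with dose, to 82.1% for TAPBP in higher dose b, while both lower dose libraries of B2M lie at 111%.

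The classical heavy chains HLA-B and HLA-C, which present peptides to cytotoxic T cells, fell at each dose. HLA-B stood at 318 and 326 CPM in untreated a and b, 298 and 308 CPM at the lower dose, and 289 and 281 CPM at the higher dose. The 3 groups did not overlap and followed the order of dose. Both libraries lay below both untreated ones for 32.2% of all tested genes at the lower dose and 38.1% at the higher, so separate groups are common here. Both higher dose libraries lay below both lower dose ones for 32.6%. The share of genes with all 3 groups apart in the order of dose was not computed. The log2 fold change of HLA-B against untreated cells was -0.09 ± 0.03 (SE, adjusted p = 0.0109) at the lower dose and -0.18 ± 0.03 (adjusted p = 3.76e-07) at the higher dose. The difference at the lower dose did not pass without untreated b (adjusted p = 0.0805) or without lower dose a (adjusted p = 0.192).

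HLA-C had 326 CPM in both untreated libraries, 294 and 298 CPM at the lower dose, and 281 and 275 CPM at the higher dose. Again no library of one group reached into another, and the untreated pair was the closest of all. The log2 fold change of HLA-C was -0.14 ± 0.03 (adjusted p = 9.03e-05) and -0.23 ± 0.03 (adjusted p = 4.96e-10). The ratio of HLA-B to HLA-C counts went from 0.977 and 1.002 in untreated cells to 1.011 and 1.033 at the lower dose and 1.027 and 1.023 at the higher dose, a small shift without a test.

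HLA-E, the non-classical chain that presents leader peptides of other class I molecules to natural killer cell receptors, stood at 504 and 499.5 CPM untreated, 463 and 478 CPM at the lower dose and 429.6 and 423 CPM at the higher dose. Its groups too were separate and ordered by dose. The log2 fold change was -0.09 ± 0.03 (adjusted p = 0.00597) at the lower dose, not passing without lower dose a (adjusted p = 0.13), and -0.23 ± 0.03 (adjusted p = 9.77e-11) at the higher dose. HLA-F, a non-classical chain of low expression, had 3.12 and 3.0 CPM untreated, 2.94 and 2.90 CPM at the lower dose and 3.16 and 2.56 CPM at the higher dose. The higher dose libraries of HLA-F lay on either side of the untreated pair, and with a log2 fold change of -0.10 ± 0.16 (adjusted p = 0.641) a change of the size seen in HLA-E was not detectable at this depth.

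Reads of different heavy chains can be mistaken for one another, so the share of sequence that could be confused was measured on reference transcripts. Of all runs of 50 bases, 2.54% in HLA-B, 6.79% in HLA-C, 5.76% in HLA-E and 1.70% in HLA-F also occur in a gene at another place. The share was 0% in B2M and TAPBP. The HLA-C share counts HLA-B, whose annotated exons overlap HLA-C by 33 bases, and was 5.72% without it. Counting genes annotated at the same place, on either strand, the share was 21.0% in HLA-B and 41.7% in HLA-F. It stayed the same in HLA-C and HLA-E. The summed reads of the 4 chains came to 1151 and 1155 CPM untreated, 1058 and 1088 CPM at the lower dose, and 1003 and 982 CPM at the higher dose. The sum was lower than in untreated cells by a log2 ratio of means of -0.10 at the lower dose and -0.22 at the higher dose, with groups that did not overlap. How the authors' counting split reads between the chains, and how far the cell line's alleles differ from the reference, were not tested.

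B2M, the invariant light chain that pairs with the classical heavy chains, went the other way. It had 1077 and 1106 CPM untreated, 1208 and 1212 CPM at the lower dose, and 1129 and 1149 CPM at the higher dose. The lower dose pair was the highest and the higher dose pair lay between it and the untreated pair, so B2M did not follow the order of dose. The rise was 10.9% at the lower dose (log2 fold change 0.15 ± 0.03, adjusted p = 5.73e-06) and 4.36% at the higher (0.06 ± 0.03, adjusted p = 0.0378). The higher dose call did not pass under 4 other settings of scaling, filter or samples (adjusted p from 0.0509 to 0.218) nor without untreated a, higher dose a or higher dose b (adjusted p from 0.0762 to 0.284).

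The direction of B2M also turned under a joint correction for transcript length and GC content. Short transcripts were relatively more abundant after treatment in these libraries (Spearman rho of log2 fold change with transcript length -0.23 at the lower dose and -0.25 at the higher dose, across 11958 genes, which are not independent replicates), and B2M, at 943 bases, is the shortest of the 8. It also has the lowest GC content of them, 39.1% against 54.8% to 60.2%, and the rho of log2 fold change with GC content was -0.093 and -0.032. With both trends removed, B2M had a log2 fold change of -0.0074 at the lower dose (adjusted p = 0.853) and -0.18 at the higher dose (adjusted p = 8.12e-10). The same correction left HLA-B at -0.23, HLA-C at -0.28, HLA-E at -0.21 and TAPBP at -0.29 at the higher dose, each still below untreated cells, and brought TAP1 from -0.14 to -0.09 (adjusted p = 0.0232). The correction takes out any response that runs with length or GC content, whether it arose in the cells or in the preparation. Neither these nor length and GC content were tested apart.

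**Figure D2:**
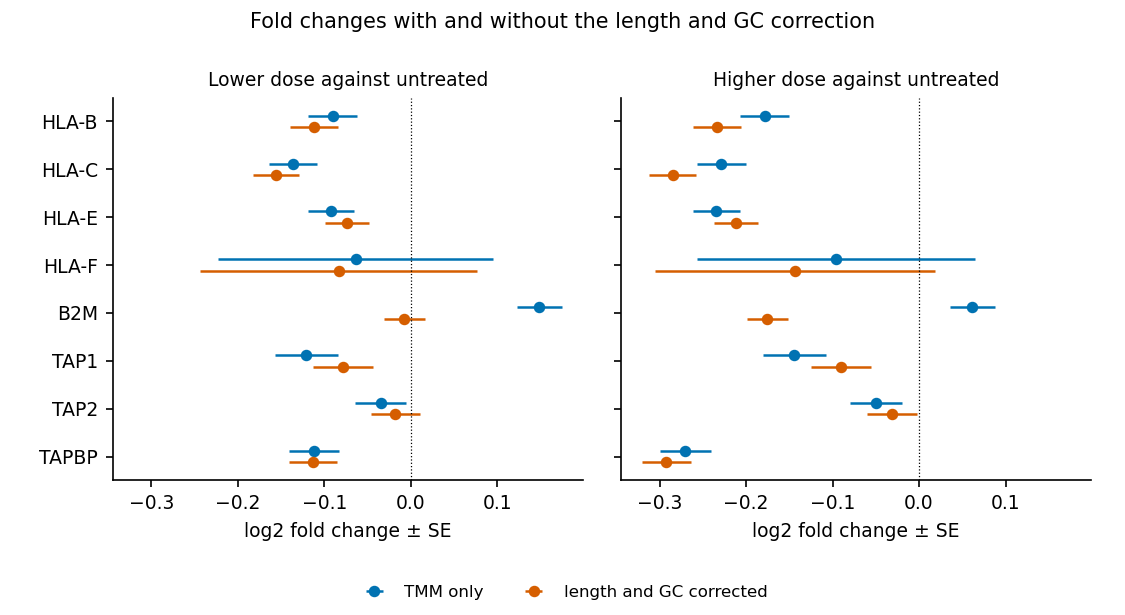
Log2 fold change against untreated cells (points, bars for the SE) of the 8 genes at the lower dose (left) and higher dose (right), scaled with TMM alone and with the length and GC trend removed. B2M moves from 0.15 to -0.0074 at the lower dose and from 0.06 to -0.18 at the higher dose, while the heavy chains and TAPBP keep their sign.

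As counted, heavy chain reads per B2M read were 1.07 and 1.04 in untreated cells, 0.876 and 0.898 at the lower dose, and 0.888 and 0.854 at the higher dose. Both treated groups lay below the untreated pair and overlapped each other. This ratio sets genes of different length and GC content against each other, and was not corrected for either.

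**Figure D3:**
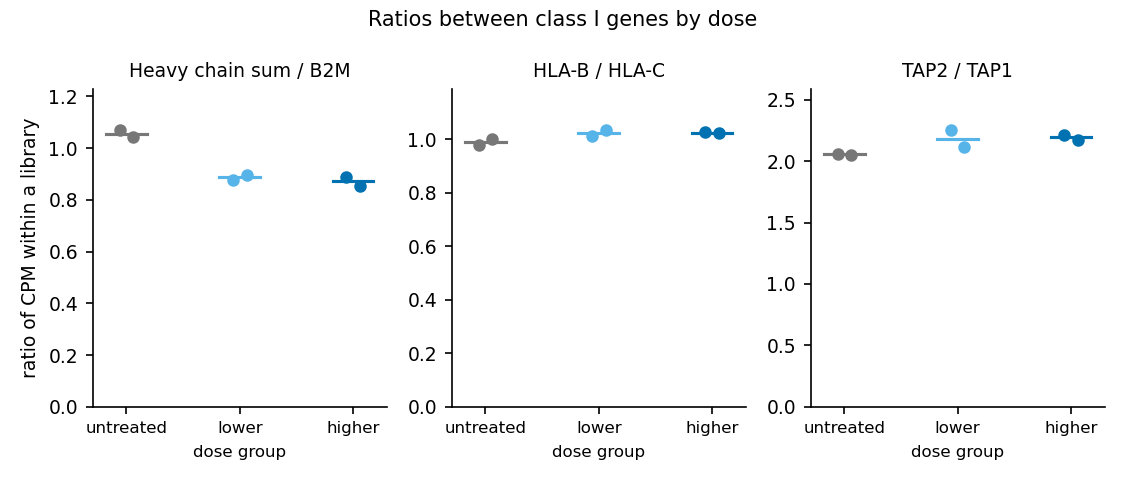
Ratios of CPM within each library by dose, with 1 point for each library and a bar for each group's mean, on axes from 0. The heavy chain sum per B2M drops from 1.07 and 1.04 in untreated cells to between 0.854 and 0.898 in the treated libraries, while TAP2 per TAP1 lies at 2.06 and 2.05 untreated and between 2.12 and 2.25 after treatment.

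The subunits of the peptide transporter differed in their calls. TAP1 had 105 and 103 CPM untreated, 91.6 and 99.0 CPM at the lower dose, and 94.6 and 92.9 CPM at the higher dose. Every treated library of TAP1 lay below the untreated pair, and the higher dose libraries fell inside the range of the lower dose. The log2 fold change was -0.12 ± 0.04 (adjusted p = 0.00719) at the lower dose and -0.14 ± 0.04 (adjusted p = 0.000609) at the higher dose. At the lower dose it did not pass with DESeq2 (adjusted p = 0.061), with the length and GC correction (-0.08, adjusted p = 0.0789) or without lower dose a (adjusted p = 0.288).

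TAP2 stood at 216 and 211 CPM untreated, 206 and 209.6 CPM at the lower dose, and 209.7 and 202 CPM at the higher dose, with log2 fold changes of -0.03 ± 0.03 (adjusted p = 0.399) and -0.05 ± 0.03 (adjusted p = 0.152). Its treated libraries lay just below the untreated pair, by less than the test could call. With upper-quartile scaling the higher dose difference passed (-0.07, adjusted p = 0.0299), and 6 of the 8 genes fell. TAP2 reads per TAP1 read went from 2.06 and 2.05 untreated to 2.25 and 2.12 at the lower dose and 2.22 and 2.17 at the higher dose, and whether the 2 genes changed differently was not tested. In GENCODE v29, 80.5% of the TAP2 exons are shared with a readthrough gene model on the same strand (AL669918.1), and 15.4% of the TAP1 exons overlap the antisense RNA gene PSMB8-AS1. Whether the counting used strand was not stated, so reads of TAP1 and PSMB8-AS1 may not be told apart.

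Tapasin, the bridge between the transporter and the heavy chain, showed the largest fall of the 8 genes at the higher dose. TAPBP had 258 and 251 CPM untreated, 233 and 238 CPM at the lower dose, and 213 and 209 CPM at the higher dose. The 3 groups were separate and ordered by dose, a pattern whose share over all tested genes was not computed. Its log2 fold change was -0.11 ± 0.03 (adjusted p = 0.00172) at the lower dose and -0.27 ± 0.03 (adjusted p = 1.27e-11) at the higher dose, a fall of 17.1%.

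Between the doses, 5 of the 8 genes were lower at the higher dose (HLA-B, HLA-C, HLA-E, B2M, TAPBP), 0 were higher and 3 did not pass, against 17.6% of all tested genes lower and 16.4% higher (34% in all). TAPBP (log2 fold change -0.16 ± 0.03, adjusted p = 1.82e-05) and HLA-E (-0.14 ± 0.03, adjusted p = 2.87e-05) passed by the widest margin. HLA-B (-0.09 ± 0.03, adjusted p = 0.013), HLA-C (-0.09 ± 0.03, adjusted p = 0.00796) and B2M (-0.09 ± 0.03, adjusted p = 0.00587) were each lost when 1 library was left out. Without lower dose b, HLA-B (adjusted p = 0.225) and HLA-C (adjusted p = 0.089) did not pass, nor did they without higher dose b (adjusted p = 0.199 and 0.141), and B2M did not pass without higher dose a (adjusted p = 0.104). TAP1 (-0.02 ± 0.04, adjusted p = 0.672), TAP2 and HLA-F gave no call between the doses.

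The partners of the class I complex in the ER were examined as a list of 9 folding, loading and trimming genes. At the higher dose 7 fell, 0 rose and 2 did not pass, with a median log2 fold change of -0.24, where 28.2% of all tested genes fell and 28.1% rose. PDIA3 (ERp57), the oxidoreductase bound to tapasin, fell from 375 and 366 CPM to 280.1 and 268 CPM, a log2 fold change of -0.44 ± 0.03 (adjusted p = 2.34e-19). The lectin chaperones calnexin (CANX, -0.37 ± 0.03) and calreticulin (CALR, -0.22 ± 0.03) fell as well, as did the trimming aminopeptidase ERAP1 (-0.47 ± 0.04). At the lower dose the count was also 7 lower and 0 higher, beside 15.9% and 16.7% of all tested genes, and these 4 genes were lower with the length and GC correction at both doses. Calnexin, calreticulin and PDIA3 also fold other glycoproteins.

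Peptide supply did not move one way. Of 5 immunoproteasome and PA28 genes, 2 rose and 2 fell at the higher dose, beside 28.1% and 28.2% of all tested genes. PSMB9, the interferon-inducible catalytic subunit whose gene lies head to head with TAP1, rose from 71.9 and 69.3 CPM to 81.3 and 82.2 CPM (log2 fold change 0.21 ± 0.04, adjusted p = 9.1e-06), a call lost with the length and GC correction (0.05, adjusted p = 0.239). Of the PA28 activator subunits, PSME1 fell (-0.19 ± 0.03, adjusted p = 1.82e-07). PSME2 rose by 0.07 ± 0.03, a call near the threshold (adjusted p = 0.0452). DESeq2 did not make the PSME2 call (adjusted p = 0.147). Nor did edgeR with other scalings, no filter or only the 2 groups compared (adjusted p from 0.0553 to 0.199). Leaving out untreated b, either lower dose library or either higher dose library also lost it (0.03 without untreated b). With the length and GC correction PSME2 was at -0.0018. PSMB10 fell by 0.10 (adjusted p = 0.0462, and 0.193 with DESeq2, 0.36 without untreated a). The 3 constitutive catalytic subunits PSMB5, PSMB6 and PSMB7 all rose at the higher dose (log2 fold change 0.09 to 0.14). With the length and GC correction all 3 lay just below 0 and did not pass (adjusted p = 0.477, 0.138 and 0.528). PSMB5 did not pass without untreated b (adjusted p = 0.0728) or higher dose b (adjusted p = 0.0757). Of 6 cytosolic peptidases, 4 fell and 1 rose, beside the same 28.2% and 28.1%. The aminopeptidase NPEPPS (-0.41 ± 0.04) and the tripeptidyl peptidase TPP2 (-0.45 ± 0.05) had the smallest adjusted p of them, ahead of NRD1 (-0.23) and LAP3 (-0.14).

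Among 12 transcription factors of class I genes, 3 rose and 3 fell at the higher dose, close to the 28.1% and 28.2% of all tested genes. At the lower dose 1, IRF1, fell (-0.13 ± 0.04, adjusted p = 0.0158), beside 15.9% of all tested genes. That call was lost with DESeq2 (adjusted p = 0.117) and with the length and GC correction (-0.09, adjusted p = 0.0924). At the higher dose IRF1, an interferon-induced activator that binds the response element, fell from 55.2 and 55.5 CPM to 43.4 and 41.6 CPM (log2 fold change -0.38 ± 0.04, adjusted p = 1.42e-10). IRF2 (-0.34 ± 0.06) and RFX5 (-0.23 ± 0.04) fell too, while RFXANK, the partner of RFX5, rose (0.28 ± 0.04, adjusted p = 3.34e-08). NLRC5, the class I transactivator, had 12.2 and 12.1 CPM untreated, 13.8 and 13.5 CPM at the lower dose and 14.5 and 13.9 CPM at the higher dose. It rose at the higher dose (0.22 ± 0.08, adjusted p = 0.0138), a call that DESeq2 did not make (adjusted p = 0.119) and that was lost without untreated b (adjusted p = 0.06) or higher dose a (adjusted p = 0.0994). With the length and GC correction it was larger, 0.37 (adjusted p = 4.47e-05), and passed at the lower dose as well (0.25, adjusted p = 0.0096).

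Interferon signalling genes included STAT2, whose change at the higher dose was the largest of any gene tested in these lists. Of 10 such genes, 4 fell and 3 rose at the higher dose, beside 28.2% and 28.1% of all tested genes. At the lower dose 4 fell and 1 rose, beside 15.9% and 16.7%, and DESeq2 did not call IFNGR1 (adjusted p = 0.0704). STAT2, a subunit of the type I interferon factor ISGF3, went from 30.6 and 31.3 CPM untreated to 21.5 and 21.9 CPM at the lower dose and 14.5 and 12.7 CPM at the higher dose. The groups were far apart, and the log2 fold change at the higher dose was -1.19 ± 0.07 (adjusted p = 3.11e-22). IRF9, its DNA-binding partner, fell by 0.67 on the log2 scale (± 0.06, adjusted p = 2.66e-13), JAK1 by 0.54 (± 0.04, adjusted p = 3.62e-18) and the interferon gamma receptor chain IFNGR1 by 0.33 (± 0.05, adjusted p = 5.83e-07). The 3 that rose were SOCS1 (0.67 ± 0.16, adjusted p = 0.000298), the other gamma receptor chain IFNGR2 (0.13 ± 0.05, adjusted p = 0.013) and TYK2 (0.10 ± 0.03, adjusted p = 0.0101). IFNGR2 was also the gene that rose at the lower dose (0.25 ± 0.045, adjusted p = 1.14e-05). These 3 genes were not followed under the alternatives.

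Other antigen presentation genes gave a frame for the class I values. MDA-MB-231 expressed class II genes, with CD74, the invariant chain, at 376 to 436 CPM and HLA-DRA at 78.0 to 94.9 CPM. Of 11 class II genes tested, 6 fell and 0 rose at the higher dose, beside 28.2% and 28.1% of all tested genes. Among those that fell were HLA-DRB1 (-0.50 ± 0.08), HLA-DRA (-0.22 ± 0.04), CD74 (-0.17 ± 0.03) and HLA-DMA (-0.16 ± 0.05). Of 10 other class I-like genes tested, 2 rose and 2 fell, where 56.3% of all tested genes were called. MICA, a stress-induced ligand of the natural killer cell receptor NKG2D, rose from 123 and 119 CPM to 143 and 145 CPM (0.26 ± 0.03, adjusted p = 1.29e-09), and MICB rose by less (0.09 ± 0.04, adjusted p = 0.0311, but 0.147 with DESeq2, 0.192 without untreated b, 0.0927 without higher dose a and 0.115 without higher dose b). HFE, an iron-regulating class I-like chain, fell (-0.47 ± 0.10), as did the pseudogene HLA-H (-0.26 ± 0.07), whose sequence resembles the classical heavy chains.

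**Figure D4:**
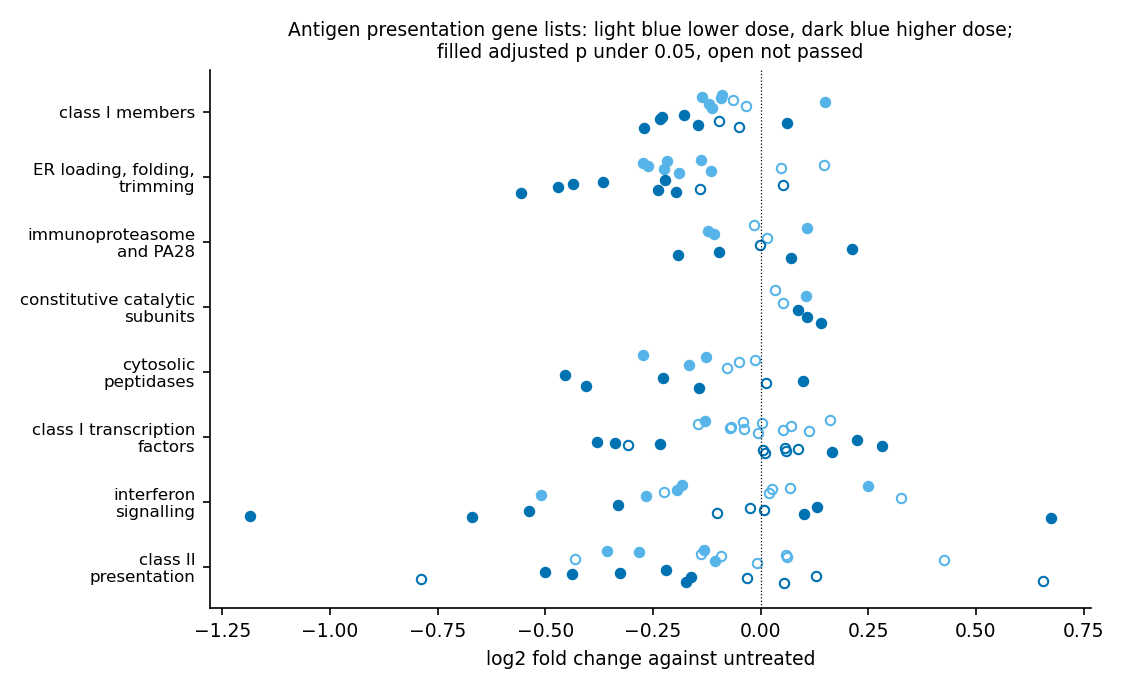
Log2 fold change against untreated cells of each tested gene (1 point a gene) in 8 lists of antigen presentation genes, at the lower dose (light blue) and the higher dose (dark blue), filled where the adjusted p was under 0.05 and open where it was not. At the higher dose all filled points of the ER list lie below 0, and the interferon list reaches from -1.19 (STAT2) to 0.67 (SOCS1).

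The genes whose pattern over the 6 libraries was most like a member's, out of 9254 of at least 10 CPM and by the distance between centred log2 CPM values, were AKAP1 and RACGAP1 for HLA-B, CASP2 and CALR for HLA-C, NUSAP1 and CD164 for HLA-E, and SFI1 and KANK2 for TAPBP. B2M was nearest to ZNF37A and DHX32, TAP1 to ACAD9 and ALG3, TAP2 to ZC3H3 and MCM2, and HLA-F to RNF141 and ZBTB7A. The distances were 0.0154 to 0.0323 on the log2 scale for all members but HLA-F, at 0.0858 and 0.0896. The members themselves were left out of the candidates, so this search could not show whether their patterns lay near one another. Among the candidates, the only gene of the other lists within a nearest 2 was calreticulin (CALR), for HLA-C.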

How the data were processed

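The authors deposited read counts as whole numbers by gene symbol, 1 file for each of 6 libraries. Per the submitters' processing notes the authors used CASAVA 1.8.1, TopHat 1.4.0 and HTSeq with the human build hg19. Annotation, counting mode and use of strand: not given in the sources used here. HTSeq's 5 summary lines (9.40% to 10.2% of a library) were left out.

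The test was edgeR's robust, two-sided quasi-likelihood F test (edgeR 4.0.16, R 4.3.3) after TMM scaling and filterByExpr. A single fit of all 6 libraries had a mean for each of 3 groups, leaving 3 residual degrees of freedom. The Benjamini-Hochberg adjustment ran over all 13548 genes tested (threshold 0.05), and each SE is the one the F statistic implies. TMM sets changes relative to most other genes and hides a change common to all of them. The biological coefficient of variation was 1.79%, a small spread between 2 libraries a group on which every p-value depends. Each ± is an SE or, for levels per kilobase, the SD of 2 libraries. CPM values were scaled by total gene reads multiplied by the TMM factor of the library. The limit of 3 reads was scaled by total gene reads alone.

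Lengths, GC content, runs of 50 bases and exon overlaps came from GENCODE v29 (GRCh38), with a length for 88.3% of tested genes, and promoter windows from RefSeq (GRCh38.p14). The files hold no coordinates.

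All 8 class I genes were named. From each list up to 4 genes with the smallest adjusted p at the higher dose were named, and NLRC5, IRF1 and RFX5 always. SOCS1, IFNGR2, TYK2 and the marker genes were named beside them. The genes and lists were chosen with earlier results of these data known. List counts are descriptions without a set test, and 3 genes of the lists are not reported here. Alternatives were DESeq2 1.42.0, other scalings, no filter, a replicate block, only the groups compared, a correction for length and GC content, and each library left out. The edgeR steps were tested on simulated data.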

Additional observations from a re-analysis of the deposited data

How the results depend on the processing

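For the 17 calls of class I genes, all 204 values under the 12 alternatives other than the length and GC correction kept their sign. That correction turned B2M to -0.0074 and -0.18 at the lower and higher dose, and, at the higher dose, PSME2 to -0.0018, PSMB7 to -0.022, PSMB6 to -0.046 and PSMB5 to -0.024. Of these values only that of B2M at the higher dose passed. With the correction the number of class I genes that rose was 0 at both doses. That number was also 0 at the higher dose with upper-quartile scaling, with library size only, with no filter and with only the 2 groups compared, where the cause was not tested. When each library was left out in turn, the number that rose at the higher dose was 0 to 1, the number that fell at the lower dose 2 to 5 and the number lower at the higher than at the lower dose 3 to 5. Where an arm was left with 1 library, that library was assumed to vary like the other groups. DESeq2 called 1362 genes higher and 1255 lower at the lower dose, against 2262 and 2156 with edgeR, and 1369 higher and 1454 lower between the doses, against 2221 and 2391. The cause was not tested.

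With the replicate block (letters a and b as a term) 2219 genes rose and 2101 fell at the lower dose, and 0 of 24 class I calls and 1 of 117 other list calls changed (PSMB10 at the higher dose, adjusted p = 0.0518). Libraries with the same letter did not deviate together (correlations -0.045, 0.0025 and -0.035), so the letters were taken as names only.

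Per kilobase of coding length the untreated levels were 3058 CPM for B2M, 467 for HLA-E, 297 for HLA-B, 297 for HLA-C, 168 for TAPBP, 109 for TAP2, 42.8 for TAP1 and 2.31 for HLA-F, so lengths move the order of the heavy chains by construction. Depth limits HLA-F, with fewer than 100 reads in each library.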
